A study of Mus musculus with 6 samples.

Results

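RNA pulled down with tagged ribosomes was compared with whole-brain RNA in adult mice whose Ank3 alleles were floxed, gene by gene. The comparison used 3 of the 6 libraries of the series, chosen by their titles: 2 immunoprecipitates (IP) of the inducible conditional knockout (icKO) and the icKO input. All 3 came from NG2CreERTM;Ank3F/F;Rpl22HA/+ mice, so the IP and its input share the Cre driver, the floxed Ank3 alleles and the HA-tagged allele of Rpl22. The mice had received tamoxifen at 100 mg/kg per day for 5 days from 8 weeks of age and were analysed 1 month later. Each library was made from 3 pooled animals, and the input was 10% of the cleared whole-brain homogenate, taken before the HA antibody and protein A/G beads were added. None of these libraries was a pull-down without tag or antibody. RNA on tagged ribosomes therefore cannot be told apart from RNA that came down otherwise. Control libraries were not used, so every difference below is between pulled-down and total RNA within the icKO genotype. None can be read as an effect of losing ankyrin-G. Any such effect in the tagged cells cannot be told apart from enrichment by the pull-down. The title of IP replicate 1 reads cKO, while its genotype label is AnkG icKO. The labels give the cell type of all 3 libraries as oligodendrocytes, although the input is homogenate of the whole brain. The NG2 driver is also known to be active in pericytes, the mural cells of capillaries. The titles name the IP libraries as biological replicates, but whether each pool came from other mice is not said. Tests then rest on how much these samples differ from each other, and that spread could be technical.

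In the RiboTag method, Cre switches on a copy of the ribosomal protein Rpl22 that carries an HA tag, and antibody against the tag then pulls ribosomes and their RNA out of a mixed tissue. Ankyrin-G, the product of Ank3, is a scaffold that ties membrane proteins to the spectrin lattice under the plasma membrane, and oligodendrocytes place it on their side of the paranodal junction between myelin and axon. NG2, the product of Cspg4, marks oligodendrocyte precursors, the dividing cells from which myelinating oligodendrocytes arise.

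The input held 19919520 counts, IP replicate 1 held 19569611 and IP replicate 2 held 18968806, and 3 counts in a library corresponded to 0.151 to 0.158 CPM, the count divided by the library total and put on the usual CPM scale. Levels below are CPM scaled by TMM (trimmed mean of M values) over these 3 libraries unless said otherwise. The IP libraries lay close to each other: over 10747 genes with at least 5 CPM in each library, the log2 ratio of replicate 1 to replicate 2 had an SD of 0.13, and 0 genes differed between them by 2-fold or more. Over the same genes the log2 ratio of IP to input had an SD of 0.96. As bulk libraries, they cannot tell fewer cells of a type from less RNA per cell.

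Ank3 itself, at chr10:69398773-70027438 on the plus strand (mm10), measured 339 CPM in the input, 1140 in IP replicate 1 and 1143 in IP replicate 2. Both IP libraries lay above the input, with a log2 ratio of 1.75 ± 0.03 (SE of the fit, 2 IP libraries against 1 input). The count covers the whole gene, which exons were floxed is not stated in the labels, and no control library entered, so these values do not check the knockout. Rpl22, whose tagged copy was the handle of the pull-down, measured 70.6 CPM in the input, 44.8 in IP replicate 1 and 41.0 in IP replicate 2, a log2 ratio of -0.72 ± 0.08. It was called lower by the test below, but not with a coefficient of variation of 20% assumed for every library.

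Of 15643 genes tested, 11117 (71.1%) differed between IP and input by edgeR's quasi-likelihood test at a Benjamini-Hochberg adjusted p under 0.05. Those higher in IP numbered 5566 (35.6%), those lower in IP 5551 (35.5%), and the median log2 ratio over all genes tested was 0.02. At least 2-fold differences that also passed the test were held by 2606 genes higher in IP (16.7%) and 2328 lower in IP (14.9%). The spread behind this test comes from the IP pair alone, and the lone input is assumed to vary like it; with an assumed coefficient of variation of 20% for every library, an alternative chosen after seeing the data, 2975 genes were higher and 2904 lower. With most genes called, the groups below are read by the size of their differences and against these shares.

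**Figure D1:**
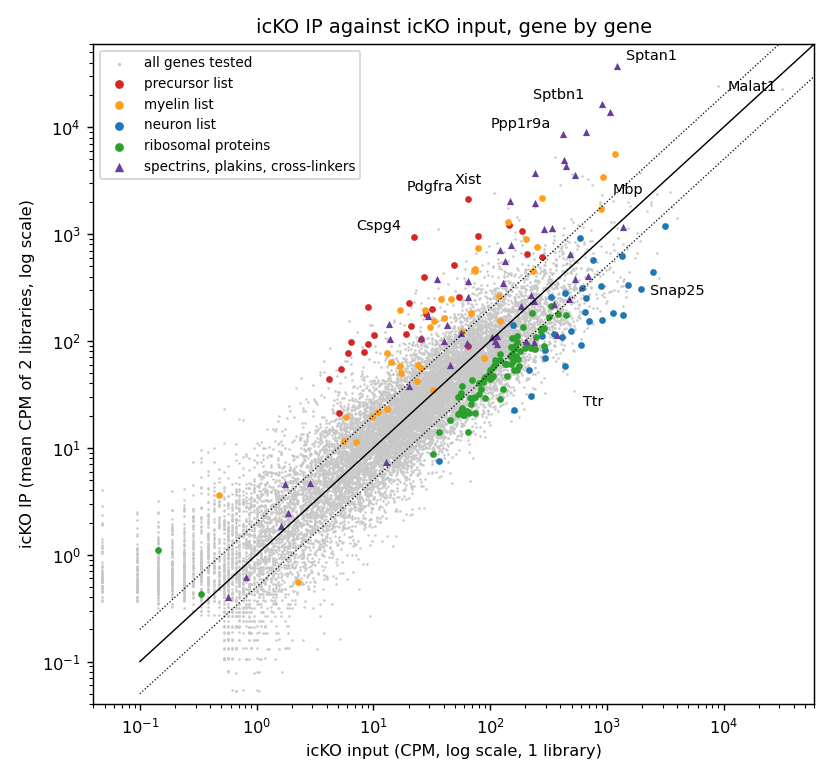
Level of each gene tested in the icKO IP (mean CPM of 2 libraries, log axis) against the icKO input (CPM of 1 library, log axis); the solid line marks equal levels, the dotted lines 2-fold differences, and colours mark 5 sets of genes. Precursor genes and Sptan1, at 1219 CPM in the input and 37620 and 37333 CPM in the IPs, lie far above the line, while neuron and ribosomal protein genes lie below it.

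The 10 largest log2 ratios among genes with at least 5 CPM in input and in IP were held by Cspg4, Pdgfra, Gpr17, Sptan1, Neu4, Matn4, Xist, Ppp1r9a, Sptbn1 and Abcc9. They include genes of the oligodendrocyte lineage, spectrins, the actin-binding scaffold Ppp1r9a, the non-coding RNA Xist and the pericyte gene Abcc9. The 10 largest gains in CPM included those of Sptan1, Malat1, Sptbn1, Dst, Ppp1r9a, Mprip, Macf1 and Plec. The 10 genes together took 1.66% of input counts and 12.7% of counts in each IP library, and those named, apart from Malat1, encode proteins of the membrane skeleton or the cytoskeleton. The 10 lowest log2 ratios among genes with at least 5 CPM in IP were those of Ttr, Penk, Sst, Chchd10, Npy, Gja1, Cck, Thy1, Nrgn and Sepp1, among them 4 neuropeptide precursors. The 10 largest losses in CPM included those of Rn45s, Rpph1, the astrocyte glutamate transporter gene Slc1a2, the neuronal kinesin gene Kif5a and the synaptic genes Camk2a, Snap25 and Nrgn.

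Oligodendrocyte precursor genes were higher in IP throughout their list: 26 of 26 passed, 25 of them by at least 2-fold, with a median log2 ratio of 3.30. Pdgfra, the growth factor receptor that marks precursors, lies at chr5:75152292-75198215. It measured 64.5 CPM in the input, 2151 in IP replicate 1 and 2143 in IP replicate 2, which is 33.3-fold higher in IP (log2 5.06 ± 0.04). Cspg4, the proteoglycan NG2 itself, lies at chr9:56865033-56899870. It measured 22.3 CPM in the input, 916 in IP replicate 1 and 952 in IP replicate 2, a 41.8-fold difference (log2 5.39 ± 0.05) and the largest of the list. For both genes the IP pair lay together and far above the input. The transcription factors of the lineage followed at 3.62 for Olig1, 3.49 for Olig2 and 3.38 for Sox10 on the log2 scale. Matrix and surface genes of precursors spread more widely, from 4.51 for Matn4 and 3.88 for Vcan to 1.66 for Bcan and 1.11 for Cspg5. The smallest member was Sox5, a transcription factor that neurons also express, which went from 64.5 CPM in the input to 91.1 and 87.0 in the IPs, a log2 ratio of 0.47 ± 0.07. The whole list took 0.147% of input counts and 1.03% of counts in each IP.

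Genes of committed and newly formed oligodendrocytes moved the same way, with 17 of 17 higher in IP, 15 by at least 2-fold, and a median log2 ratio of 2.94. Gpr17, a receptor of cells that have just left the precursor state, measured 36.0 CPM in the input, 1103 in IP replicate 1 and 1144 in IP replicate 2 (log2 4.96 ± 0.04). Both IP libraries stood clear of the input. Neu4, a sialidase, had a log2 ratio of 4.62 ± 0.10, the phosphodiesterase gene Enpp6 had 3.44 ± 0.12 and Bmp4 had 3.08 ± 0.19. The smallest ratios were 0.94 for Chn2 and 0.83 for Tcf7l2.

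Myelin and mature oligodendrocyte genes were higher in IP in 37 of 40 cases, 29 of them by at least 2-fold, and the median log2 ratio was 1.75. The list took 0.562% of input counts, 2.06% in IP replicate 1 and 2.05% in IP replicate 2. Mbp, the basic protein that compacts myelin and whose mRNA is carried out to the sheath, measured 933 CPM in the input, 3409 in IP replicate 1 and 3377 in IP replicate 2 (log2 1.86 ± 0.02). It lay high in the IP pair, yet its ratio was below those of several other myelin genes. Mag, the adhesion protein of the inner myelin membrane, went from 142 CPM in the input to 1283 and 1310 in the IPs (log2 3.19 ± 0.04), and the enzyme Cnp from 277 to 2170 and 2187 (log2 2.98 ± 0.03). Adamts4, a protease, had the largest ratio at 3.51 ± 0.08, ahead of the actin-severing protein gene Gsn at 3.23 ± 0.04. Mog, on the outermost surface of the sheath, and Opalin stood at 2.04 and 2.18. The exceptions were Klk6 at -2.02 ± 0.54, with 2.28 CPM in the input and under 1 CPM in both IPs, Apod at -0.36 ± 0.07, and Anln, which did not pass (log2 0.08 ± 0.10). Apod is also expressed by cells of the vessel wall, and their part in its ratio was not tested.

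Genes of adhesion between glia and axon were divided. Of 20 tested, 6 (30%) were higher and 9 (45%) lower in IP, and the median was -0.14. These shares are near the 35.6% and 35.5% of all genes tested, so no direction is given for the list as a whole. Nfasc, whose glial form sits at the paranode and whose neuronal form sits at the node, measured 400 CPM in the input, 2873 in IP replicate 1 and 2891 in IP replicate 2 (log2 2.85 ± 0.03). Its axonal partner genes split: Cntn1 was higher at a log2 ratio of 1.32 ± 0.03 and Cntnap1 lower at -1.53 ± 0.05, with 232 CPM in the input, well above both IPs. Cntn2, which both cell types place at the juxtaparanode, was higher at 1.17 ± 0.04, and its axonal partner Cntnap2 was lower at -1.03. Among the Cadm adhesion genes of the internode, Cadm4, the glial member, was higher at 0.52, and Cadm3, an axonal member, was lower at -1.57. With the assumed spread of 20%, 4 were higher and 5 lower, against 2975 and 2904 of the 15643 genes tested. Counts per gene do not separate the glial from the neuronal form of Nfasc.

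The spectrin genes were the part of the membrane skeleton that stood highest in IP. Sptan1, the single alpha subunit of brain spectrin, lies at chr2:29965560-30031451. It measured 1219 CPM in the input, 37620 in IP replicate 1 and 37333 in IP replicate 2, a 30.7-fold difference (log2 4.94 ± 0.02). This 1 gene took 0.129% of input counts, 3.66% of counts in IP replicate 1 and 3.64% in IP replicate 2. Sptbn1, the widely expressed beta subunit at chr11:30099395-30268175, measured 908 CPM in the input, 16311 in IP replicate 1 and 16325 in IP replicate 2 (log2 4.17 ± 0.02). Sptb, the erythrocyte beta subunit, followed at 3.93 ± 0.03, with 242 CPM in the input and 3682 and 3724 in the IPs. Sptbn4, the beta subunit of axon initial segments and nodes, stood lower at 1.96 ± 0.03. Both IP libraries stood clear of the input for each of these subunit genes, which cover forms known from glia, neurons and red cells alike.

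The ankyrin genes did not move together. Ank2, the gene of ankyrin-B at chr3:126921612-127499350, measured 529 CPM in the input, 3633 in IP replicate 1 and 3567 in IP replicate 2 (log2 2.77 ± 0.02). Its ratio was above that of Ank3, at 1.75. Ank1 measured 115 CPM in the input and 112 in both IPs, a log2 ratio of -0.04 ± 0.06 that did not pass (edgeR quasi-likelihood test, adjusted p = 0.523). Over the tested alternatives the adjusted p of Ank1 ran from 0.0093 to 0.970: with counts scaled to library totals it was called lower in IP (log2 -0.16, adjusted p = 0.0093, edgeR quasi-likelihood test), and no other alternative called it. With the spectrins counted, the list of ankyrin, spectrin, adducin and protein 4.1 genes had 13 of 20 tested members higher in IP, 5 lower and a median log2 ratio of 0.73. Epb41l2 and Epb41 of the protein 4.1 family, which bind spectrin to actin, stood at 1.43 and 1.06, and Epb41l3 and Epb41l1 at -0.66 and -0.77. Adducins, which cap actin at spectrin junctions, ran from 0.43 for Add1 and 0.21 for Add3 to -0.96 for Add2, the form enriched in neurons, and the lowest member was the actin-bundling dematin gene Dmtn at -1.71. The list took 0.853% of input counts, 7.79% of counts in IP replicate 1 and 7.81% in IP replicate 2. With the assumed spread of 20%, 10 of its genes were higher and 2 lower.

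**Figure D2:**
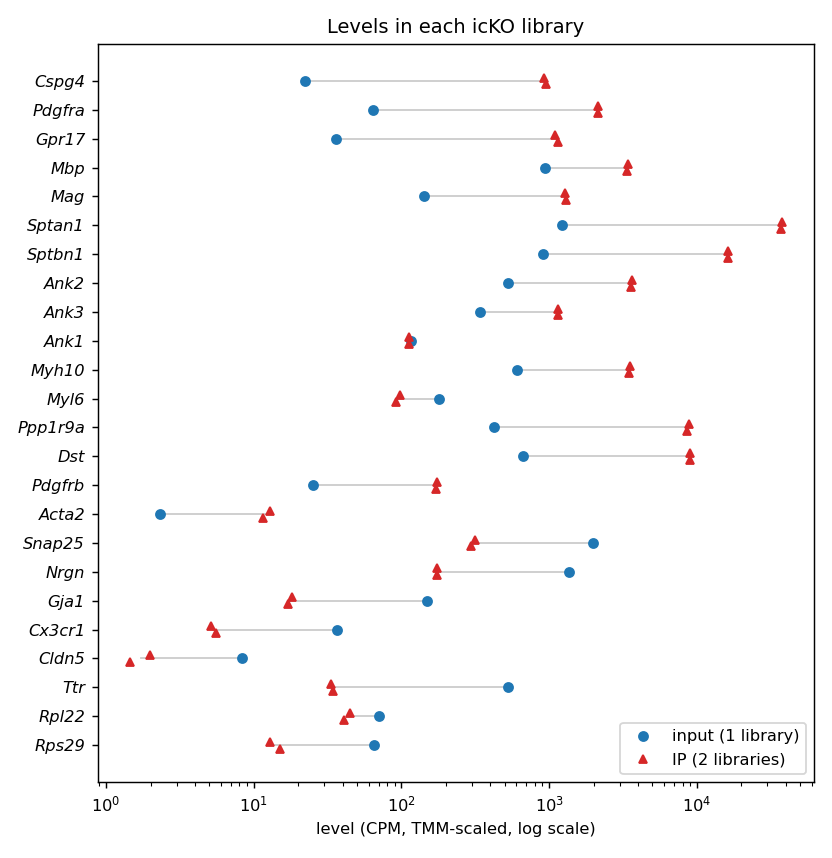
Level of 24 genes in each icKO library (TMM-scaled CPM, log axis); circles show the input, triangles the 2 IP libraries and grey lines join input to IP. The 2 IP libraries nearly coincide, Sptan1 and the precursor genes lie far to the right of their input, Ank1 overlaps with its input, and neuron, astrocyte, microglia and choroid plexus genes lie to the left.

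Per kilobase of transcript, the scale on which genes can be set beside each other, Sptan1 was the first of 14532 protein-coding genes in IP, at 4941 CPM per kb, against rank 239 and 161 CPM per kb in the input. Ppp1r9a and Sptbn1 took ranks 2 and 3 in IP at 2190 and 1929 CPM per kb, from 106 and 107 CPM per kb in the input. Mbp took rank 5 at 1362 CPM per kb and had been at rank 56, with 374 CPM per kb, in the input. Each length was that of the annotated transcript with the longest coding sequence, 3975 nt for Ppp1r9a and 2492 nt for Mbp. With these lengths the 3 cytoskeletal genes stood above Mbp in IP, whereas in the input Mbp was above all 3. Ranks depend on that choice, as a longer transcript would lower the value per kilobase. Pdgfra rose from rank 6170 at 9.44 CPM per kb to rank 39 at 314 CPM per kb. Ank3 reached rank 166 at 133 CPM per kb, from 39.4 in the input, well below Ank2 at 290 CPM per kb.

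Among genes of actin motors, the 3 non-muscle myosin II heavy chains and most unconventional myosins were higher in IP, and light chains were divided. Myh10, non-muscle myosin IIB at chr11:68691559-68816632, measured 606 CPM in the input, 3549 in IP replicate 1 and 3482 in IP replicate 2 (log2 2.54 ± 0.02). Myh9, non-muscle myosin IIA, measured 170 CPM in the input, 1428 in IP replicate 1 and 1436 in IP replicate 2 (log2 3.07 ± 0.03). Myh14, the IIC form, was the smallest of the heavy chains at 1.99 ± 0.05, and all 3 stood clear of the input in both IPs. Of the light chains, Myl6 fell by 0.92 and Myl12b fell by 1.90 on the log2 scale, with 167 CPM of Myl12b in the input and 44.5 and 44.6 in the IPs. Myl9, a light chain of smooth muscle and other contractile cells, was higher at 2.98 ± 0.16, from 3.80 CPM in the input. Of the 14 genes of non-muscle myosin II and its regulators, 8 were higher and 6 lower, with a median of 0.40 (6 and 3 with the assumed spread of 20%). Unconventional myosins, single motors for cargo and membrane, were higher in 18 of 22 cases and lower in 0, with a median of 1.13. DESeq2 called 15 of them higher and the assumed spread of 20% called 13, with 0 lower in either. Myo5a, which carries cargo along actin, measured 696 CPM in the input, 3382 in IP replicate 1 and 3229 in IP replicate 2 (log2 2.25 ± 0.02), and Myo10 and Myo6 stood at 1.91 and 1.58.

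Proteins that cross-link actin or tie it to membranes were higher in 18 of 26 cases, 16 of them by at least 2-fold, and lower in 5, with a median log2 ratio of 1.84. Ppp1r9a, the gene of the actin-binding scaffold neurabin at chr6:4902917-5165661, measured 423 CPM in the input, 8788 in IP replicate 1 and 8622 in IP replicate 2 (log2 4.36 ± 0.02). Its paralog Ppp1r9b, spinophilin, was at 1363 CPM in the input and 1175 and 1154 in the IPs (log2 -0.23 ± 0.03). The IP pair of neurabin lay far above its input and that of spinophilin slightly below. Limch1 stood at 3.79, Lima1 at 3.40, Dbn1, the gene of drebrin, at 3.03, and Actn4, an alpha-actinin, at 2.39. Coro2b and Synpo, a dendritic spine protein, were lower at -1.01 and -1.29. Mprip, which targets myosin phosphatase to actin and is on none of the lists, went from 356 CPM in the input to 5282 and 5334 in the IPs (log2 3.90 ± 0.02).

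Plakins are giant proteins that link actin, microtubules and intermediate filaments, and the 3 most abundant were all higher in IP. Dst, at chr1:33908225-34308661, measured 668 CPM in the input, 8960 in IP replicate 1 and 9005 in IP replicate 2 (log2 3.75 ± 0.02). Macf1 went from 433 CPM to 4915 and 4913 (log2 3.51 ± 0.02) and Plec from 445 to 4331 and 4405 (log2 3.29 ± 0.02). Of the 7 plakin genes 4 were higher and 1, Evpl, was lower, with a median of 0.71. The list took 0.165% of input counts, 1.77% in IP replicate 1 and 1.79% in IP replicate 2.

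The monomers of the filaments did not follow their cross-linkers. Of 29 actin and filament dynamics genes, 6 were higher and 21 lower in IP, with a median of -0.67, and their share of counts was 0.602% in the input and 0.422% and 0.419% in the IPs. Actb, cytoplasmic beta-actin, was nearly level at 1591 CPM in the input, 1816 in IP replicate 1 and 1809 in IP replicate 2 (log2 0.19 ± 0.02). Actg1, gamma-actin, fell by 0.67 and the actin-sequestering thymosins Tmsb4x and Tmsb10 fell by 1.59 and 2.28 on the log2 scale. Acta2 and Arpc1b were the 2 members at least 2-fold higher. Tubulins split by isotype, 5 higher and 9 lower of 16, with a median of -0.88. Tubb4a, the isotype abundant in myelin, was higher at 0.94 ± 0.03, while Tuba4a at -2.75 and the neuronal Tubb3 at -2.10 were lower. Among kinesin, dynein and dynactin genes 11 were higher and 19 lower of 32, with a median of -0.47. Dync1h1, the dynein heavy chain, was higher at 1.36, as were Kif13a and Kif13b at 1.93 and 1.78, and the neuronal kinesin-1 genes Kif5a and Kif5c were lower at -1.03 and -1.14. Septins, filament-forming GTPases, gave 5 higher and 5 lower of 11, among them Septin4 and Septin2 at 1.52 each and Septin5 at -1.75. The deposited counts hold septin symbols as dates, such as 5-Sep, and these were read back as septins by their number. With the assumed spread of 20%, 2 actin and filament dynamics genes were higher and 10 lower, and 4 kinesin, dynein and dynactin genes were higher and 10 lower.

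**Figure D3:**
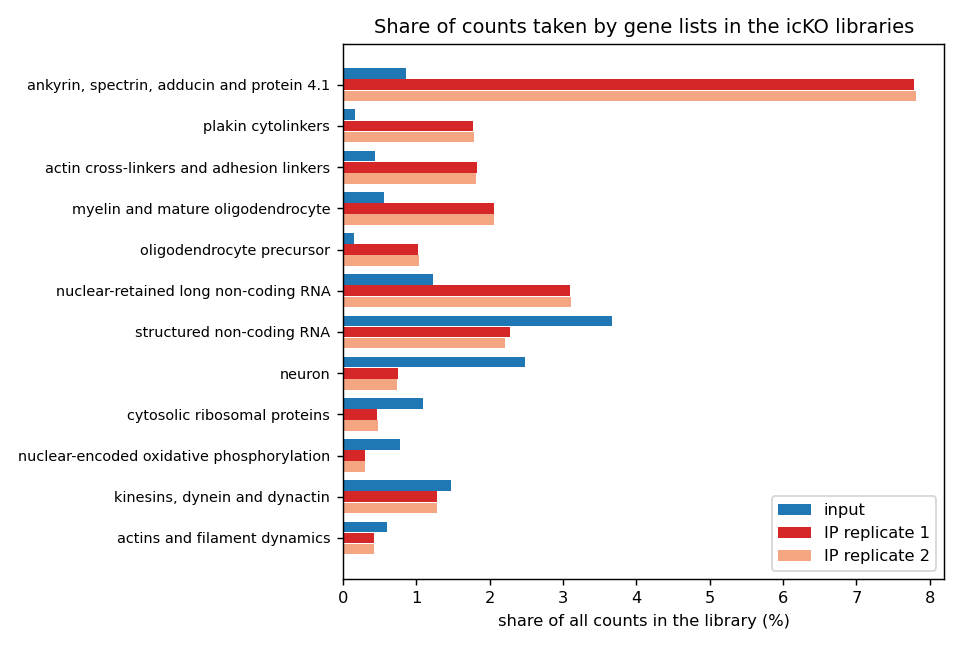
Share of all counts taken by 12 gene lists in the icKO input and the 2 icKO IP libraries (percent of the library total, bars from 0). The ankyrin and spectrin list rises from 0.853% in the input to 7.79% and 7.81% in the IPs, while the lists of neurons, ribosomal proteins and oxidative phosphorylation shrink.

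Genes of mural cells were higher in IP beside those of the oligodendrocyte lineage. Of 15 pericyte genes 14 were at least 2-fold higher, 1 was lower, and the median log2 ratio was 3.08. Pdgfrb, the receptor that pericytes need to cover capillaries, measured 25.3 CPM in the input, 174 in IP replicate 1 and 173 in IP replicate 2 (log2 2.77 ± 0.07). Abcc9 and Kcnj8, which form a potassium channel of pericytes, stood at 4.05 ± 0.10 and 3.49 ± 0.20, and Rgs5 at 3.08 ± 0.09. The only lower member, Zic1, a transcription factor also found in neurons and meninges, was at -0.37. Neither DESeq2 nor the assumed spread of 20% called it lower. Of 10 vascular smooth muscle genes tested 9 were higher and 1 lower, with a median of 1.78, at far lower levels. Acta2 measured 2.33 CPM in the input, 12.9 in IP replicate 1 and 11.5 in IP replicate 2 (log2 2.39 ± 0.22). Tagln, at 3.09 CPM in the input and 5.62 and 3.63 in the IPs, only just passed (edgeR quasi-likelihood test, adjusted p = 0.0448). It did not pass with library totals (adjusted p = 0.114), with no filter on low counts (0.0929), with DESeq2 (0.375) or with the assumed spread of 20% (0.270). With DESeq2, 6 smooth muscle genes were higher and 1 lower. By share of counts the mural genes were a small part of the IP, 0.120% and 0.122% for the pericyte list against 1.03% for the precursor list.

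Most genes on the lists of neurons, astrocytes, microglia, choroid plexus and endothelium were lower in IP. Of 30 neuron genes 29 were lower, 24 of them by at least 2-fold, with a median log2 ratio of -1.97, and the list fell from 2.48% of input counts to 0.751% and 0.742% in the IPs. Snap25, a synaptic vesicle fusion protein, measured 1969 CPM in the input, 316 in IP replicate 1 and 295 in IP replicate 2 (log2 -2.69 ± 0.03). Nrgn, a calmodulin-binding protein of dendrites, was the lowest at -2.97 ± 0.03, and excitatory Slc17a7 and inhibitory Gad1 stood at -2.53 and -1.93. Gria2, an AMPA receptor subunit that precursors also express, was the 1 neuron gene higher in IP, at 0.62 ± 0.03, with 594 CPM in the input and 926 and 903 in the IPs. All the neuron genes were still detected in both IPs.

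Astrocyte genes were lower in 20 of 23 cases with a median of -1.61. Gja1, the astrocyte gap junction protein, measured 150 CPM in the input, 18.2 in IP replicate 1 and 17.2 in IP replicate 2 (log2 -3.08 ± 0.08). Gpr37l1, which precursors also express, was the 1 higher member, with 76.0 CPM in the input and 147 and 158 in the IPs. Microglia genes were lower in 21 of 22 cases, with a median of -1.96: Cx3cr1, the fractalkine receptor, stood at -2.79 ± 0.14 and the protease Ctss at -3.34 ± 0.13, and Siglech did not pass. Choroid plexus and ependyma genes were lower in 14 of 17, among them the thyroid hormone carrier Ttr, from 523 CPM in the input to 33.4 and 34.1 in the IPs (log2 -3.95 ± 0.05). Endothelial genes were lower less evenly, 13 of 21 with 3 higher and a median of -0.74. Cldn5, the tight junction protein, was at -2.26 ± 0.26, and the lipid transporter Mfsd2a was higher at 2.43 ± 0.10, from 13.1 CPM in the input to 69.2 and 71.6 in the IPs. Genes of fibroblasts and collagens gave 8 higher and 6 lower of 16, or 4 and 4 with the assumed spread of 20% and 6 and 2 with DESeq2: Nid1 and Col5a1 stood at 2.14 and 1.76, and the meningeal fibroblast genes Dcn and Lum at -2.48 and -2.09.

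**Figure D4:**
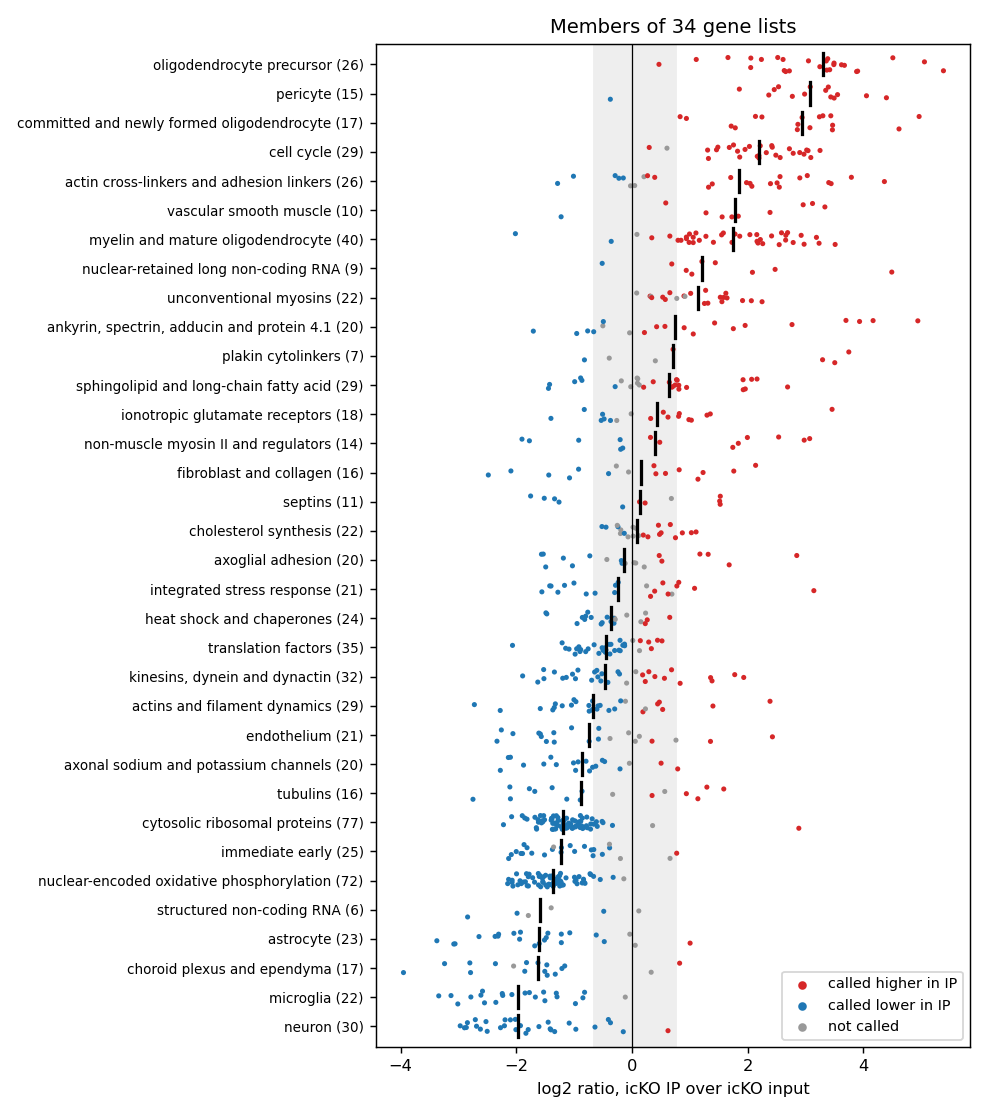
Log2 ratio of icKO IP over icKO input for each tested member of 34 gene lists (points, with the number tested in parentheses), ordered by list median (black bars); the grey band spans the quartiles of all genes tested, from -0.66 to 0.75. Precursor, pericyte, committed oligodendrocyte and cell cycle lists have medians above 2, and neuron and microglia lists have medians near -2.

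The genes of the ribosome and of mitochondrial respiration were low in IP with few exceptions. Of 77 cytosolic ribosomal protein genes 75 were lower in IP, 51 by at least 2-fold, with a median log2 ratio of -1.19, and 1 was higher. Rps29, the lowest, measured 65.3 CPM in the input, 12.8 in IP replicate 1 and 15.1 in IP replicate 2 (log2 -2.22 ± 0.10), and Rpl13, among the least changed, stood at -0.34 ± 0.05. The 1 higher gene, Rps27, had 0.143 CPM in the input and 0.946 and 1.25 in the IPs; it has many processed copies in the genome, and how shared reads were counted is not stated, so this value is uncertain. The list took 1.10% of input counts and 0.463% and 0.476% of the IPs. Nuclear genes of oxidative phosphorylation were lower in 71 of 72 cases, 56 by at least 2-fold, with a median of -1.37, from -0.33 for Ndufs1 to -2.15 for Cox7b among those that passed. Translation factors were lower in 28 of 35 cases but by less, with a median of -0.45. Their 5 higher members, Eif3a, Eif4g1, Eif5b, Eif4g3 and Eif3b, are initiation factors, and Eef1a2, the elongation factor of neurons and muscle, was the lowest at -2.07. With the assumed spread of 20%, 9 translation factor genes were lower and 0 higher, while 63 ribosomal protein and 65 oxidative phosphorylation genes were still lower.

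Length of the encoded protein moved with the ratio across the transcriptome. When the genes tested were cut by protein length into 5 bins of about equal size, the bin of the shortest proteins held 37 to 261 amino acids. Its median log2 ratio was -0.61, with 13.1% of genes higher in IP and 58.9% lower. In the bin of the longest, 869 to 35213 amino acids, the median was 0.58, with 63.7% higher and 18.5% lower, and the 3 bins between rose in order from -0.26 through -0.01 to 0.21. Transcript length gave a smaller span, from -0.35 in the shortest bin to 0.36 in the longest. Its bins also held non-coding genes, so the spans are not over the same genes. The gene groups differ in this respect: the median protein had 145 amino acids for oxidative phosphorylation and 156 for ribosomal proteins, 479 over all genes tested, 1026 for the ankyrin and spectrin list and 3458 for plakins. Among cell type lists higher in IP, the median was 622 amino acids for precursor genes and 447 for pericyte genes. It was 279 for myelin and mature oligodendrocyte genes, which were also higher in IP. Of lists lower in IP, neuron genes had a median of 563, microglia genes 334 and choroid plexus and ependyma genes 269. The part of length in the differences between groups was not tested.

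**Figure D5:**
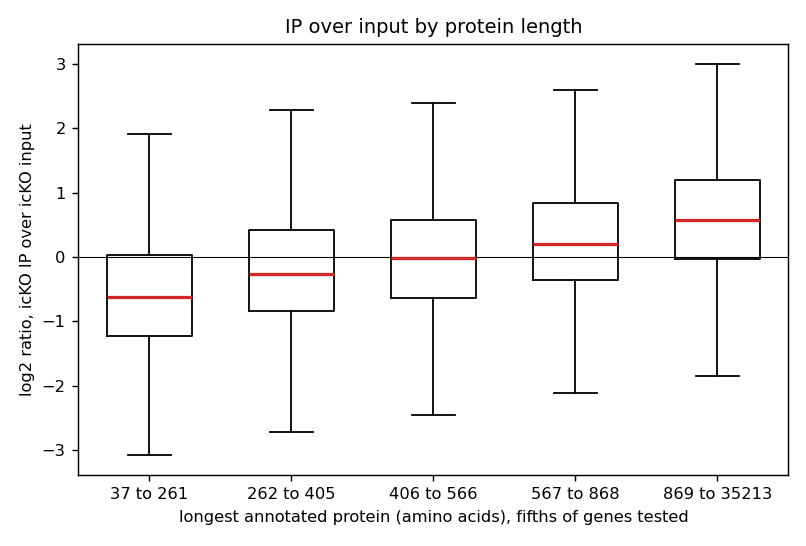
Log2 ratio of icKO IP over icKO input in 5 bins of the genes tested by protein length (amino acids); boxes span the quartiles of each bin with the median in red, and whiskers reach the last gene within 1.5 box heights. Medians climb from -0.61 in the shortest bin to 0.58 in the longest, and the boxes of neighbouring bins overlap.

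Cell cycle genes were higher in 28 of 29 cases, 27 by at least 2-fold, with a median log2 ratio of 2.20. Their levels were low. Mki67, a marker of dividing cells, measured 3.28 CPM in the input, 26.2 in IP replicate 1 and 25.4 in IP replicate 2 (log2 2.97 ± 0.18), and Top2a, a topoisomerase of dividing cells, was higher at 3.09 ± 0.17. Aurka did not pass, and Pcna, which also serves DNA repair, was the smallest called member at 0.30.

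RNAs that are not translated were also among those higher in IP. Of 9 long non-coding RNAs found mostly in the nucleus 8 were higher, 1 was lower, and the median log2 ratio was 1.21. Xist, the RNA that coats the inactive X chromosome, measured 108 CPM in the input, 2425 in IP replicate 1 and 2420 in IP replicate 2 (log2 4.49 ± 0.03). Sex of the pooled mice did not enter the comparison, and its part in the Xist ratio was not tested. Malat1, a nuclear speckle RNA, measured 9029 CPM in the input, 24546 in IP replicate 1 and 24448 in IP replicate 2 (log2 1.44 ± 0.01). Kcnq1ot1 stood at 2.47, Neat1 at 1.21 and Meg3 at 0.94, and Tug1 was lower at -0.52. The list took 1.23% of input counts and 3.10% and 3.11% of IP counts. Structured RNAs of other machines were lower or not called: Rpph1, of ribonuclease P, stood at -2.84 and Rmrp, of ribonuclease MRP, at -1.99. Rn45s, the 45S ribosomal RNA precursor, measured 31669 CPM in the input, 22920 in IP replicate 1 and 22202 in IP replicate 2 (log2 -0.49 ± 0.01). It was not called with the assumed spread of 20%.

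Lipid synthesis is a main task of the myelinating cell. Of 29 sphingolipid and long-chain fatty acid genes 17 were higher and 6 lower, with a median of 0.64. The enzymes of myelin galactolipids led: Ugt8a, which makes galactosylceramide, measured 37.9 CPM in the input, 257 in IP replicate 1 and 232 in IP replicate 2 (log2 2.69 ± 0.06). Fa2h, Cers2 and Gal3st1 of the same route stood at 2.16, 1.96 and 1.92. Ugcg, which makes glucosylceramide instead, was lower at -1.43, and Elovl2 at -1.44. Of 22 cholesterol synthesis genes 10 were higher and 4 lower, with a median of 0.09 that is close to that of all genes, and the largest ratio was that of Lss at 1.11. With counts scaled to library totals instead of by TMM, 9 were higher and 7 lower, so no direction is given for that list. With the assumed spread of 20%, 7 genes of the sphingolipid and fatty acid list were higher and 5 lower.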

How the data were processed

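Total RNA libraries of 2 icKO immunoprecipitates and 1 icKO input were analysed from the raw read counts per gene that the authors deposited. The submitters' processing notes name Trimmomatic 0.39 for trimming and STAR 2.7.10b with build mm10 for alignment. The counter, annotation, strand setting and handling of duplicates were not stated there or in the labels. Antisense overlaps and near-identical copies are therefore uncertain.

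The file lists 24421 genes, and 10 without an input value were dropped. The other 24411 were scaled by TMM over the 3 libraries, and the 15643 kept by filterByExpr went through edgeR 4.0.16 (R 4.3.3; glmQLFit and glmQLFTest, two-sided, Benjamini-Hochberg adjusted p under 0.05). The fit had 1 residual degree of freedom and a common coefficient of variation of 3.18%. Its prior degrees of freedom were infinite, so every SE and p rests on a spread shared over genes and not on the gene's own replicates. On simulated counts for this comparison it recovered 180 of 200 changed genes, with 7 false calls. The simulated input was given the same spread as the IPs, and most genes were left unchanged. It therefore cannot give the rate of false calls in the real comparison. Shares are percentages of library totals. Lengths and coordinates are from GENCODE M21, and 99.1% of genes tested had a transcript length. For protein-coding genes it was that of the transcript with the longest coding sequence.

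The comparison and the 34 gene lists, with 839 of 845 symbols in the file, were chosen with earlier results of these data known. Named genes were a preset panel of markers and Ank3-related genes, the 10 largest log2 ratios and CPM differences each way, and the 2 highest and lowest members of each list. Some genes that met this rule are not reported here. Other list members named were chosen after their values were seen. Alternatives were other scalings, filters, DESeq2 1.42.0 (median-of-ratios), leaving out an IP library, omitting 45S ribosomal RNA and a larger assumed spread.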

Additional observations from a re-analysis of the deposited data

How the results depend on the processing

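No paired analysis was possible because the input carries no replicate number and is a single library. An assumed coefficient of variation of 20%, chosen after seeing the data, left 2975 genes higher and 2904 lower in IP, against 5566 and 5551 reported. Requiring at least 5 CPM in each library left 1504 genes at least 2-fold higher and 1391 lower, against 2606 and 2328, as fewer genes were tested. Leaving out each IP replicate in turn, with no test, gave 2916 to 2958 genes at least 2-fold higher and 2557 to 2588 lower. DESeq2 called 4097 higher and 4158 lower, with 9 choroid plexus and ependyma genes lower against 14 and 2 fibroblast and collagen genes lower against 6. Scaling to library totals moved the median of all genes by -0.118 (log2) and the split to 4937 higher and 6215 lower. List medians changed sign for septins (-0.12) and integrated stress response genes (0.29) at 5 CPM or more, and for cholesterol synthesis genes (-0.028) with library totals. The cause was not tested. Of 183 named genes, 0 that were called changed direction under any alternative run, and 34 lost their call under at least 1, 27 of them with the 20% spread and 14 with DESeq2.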

Other observations

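Immediate early genes, the transcripts that neurons and other cells switch on within minutes of a stimulus, were lower in IP. Of 25 tested, 20 were lower and 1 was higher, with a median log2 ratio of -1.22. Egr1 measured 284 CPM in the input, 68.6 in IP replicate 1 and 60.7 in IP replicate 2 (log2 -2.13 ± 0.05), and Fos stood at -1.82 ± 0.13. Jun was the exception, with 79.5 CPM in the input and 136 and 135 in the IPs (log2 0.77 ± 0.06). Heat shock and chaperone genes were lower in 16 of 24 cases and higher in 3, with a smaller median of -0.36, and the abundant Hspa8 stood at -0.82. Integrated stress response genes gave 8 higher and 11 lower of 21: the one-carbon enzyme Aldh1l2, from 4.09 CPM in the input to 34.7 and 37.7 in the IPs, stood at 3.14 ± 0.16 and Psat1, an enzyme of serine synthesis, at 1.08 ± 0.07, while Atf4, the transcription factor of the pathway, stood at -0.64 ± 0.07.

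Voltage-gated sodium and potassium channel genes of axons were lower in 17 of 20 cases, with a median of -0.86, and the accessory subunits Scn4b and Scn2b were among the lowest, at -2.14 and -2.10. Scn3a, at 69.8 CPM in the input and 119 and 122 in the IPs, and Kcna6 were the 2 higher members (log2 0.79 ± 0.06 and 0.50 ± 0.06). Ionotropic glutamate receptor genes were divided by subunit, with 10 higher and 6 lower of 18 and a median of 0.43. Among AMPA receptor subunits Gria4, Gria2 and Gria3 were higher at 0.81, 0.62 and 0.54, and Gria1 was lower at -0.83. Among NMDA receptor subunits Grin1, which all NMDA receptors need, fell by 1.40 on the log2 scale, from 661 CPM in the input to 246 and 254 in the IPs. The kainate receptor subunit Grik1 was higher at 1.35 ± 0.11. With the assumed spread of 20%, 14 immediate early genes and 5 heat shock genes were lower and 0 of either list higher, 2 integrated stress response genes were higher and 6 lower, 5 glutamate receptor genes were higher and 2 lower, and 0 channel genes were higher and 10 lower.

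In 7 genes with 0 counts in the input, each IP library held at least 20 counts, and 1 gene with at least 20 counts in the input had 0 in both IPs. The largest of the 7 was Mir6982, a microRNA locus with 58 and 54 counts in the IPs, at least 19.3-fold higher against the 3 counts that a 0 allows.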
